A study of Mus musculus with 16 samples.

Results

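Genes of fatty acyl-CoA metabolism (acyl-CoA synthetases, thioesterases and oxidation enzymes) are described here, taken as those whose symbols start with Acad, Acox, Acot, Acsb, Acsf, Acsl, Acsm, Acss, Acaa, Hadh, Echs, Echdc, Ech1, Eci, Cpt1 or Cpt2, with Ehhadh, Hsd17b4, Hao2 and Pex11a. They came to 64 of the 30142 genes measured by probesets of 1 symbol, each read from its brightest probeset. By textbook role they comprised 16 synthetases, 13 thioesterases, 10 acyl-CoA dehydrogenases, 3 oxidases, 16 enzymes of the later steps, 4 carnitine transferases, and the pair Hao2 and Pex11a. By compartment 31 were assigned to the mitochondrion, 14 to the peroxisome, 2 to both, 6 to the cytosol or endoplasmic reticulum, and 11 were left unassigned. Acsl1 and Acsl3, which the symbols would also take, had no probeset of their own and were not analysed here.

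Fatty acids are handled as thioesters of coenzyme A (CoA). Acyl-CoA synthetases make the thioester, thioesterases hydrolyse it, and carnitine palmitoyltransferases pass long chains into the mitochondrion. There the chain is shortened by dehydrogenases, hydratases, hydroxyacyl-CoA dehydrogenases and thiolases, while peroxisomes use oxidases for the first step and take chains that mitochondria handle poorly. Proximal tubule cells of the kidney are rich in both organelles and burn fatty acids as a main fuel.

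RNA came from glomeruli, the filtering units of the kidney, isolated from the cortex of 16 female mice, 1 array per mouse. Of these, 8 were C57Bl/6 wild type and 8 were B6.ERαKO, the knockout of oestrogen receptor alpha on that background; the labels give no age and no details of the allele. Each genotype had 2 untreated mice and 2 mice each at 18 hours, 6 days and 2 weeks after an intraperitoneal injection of sheep nephrotoxic serum (8 ul per g), an antiserum against the glomerular basement membrane that causes nephritis. The series title names oestrogen receptor alpha, lipid metabolism and glomerulonephritis, so the comparisons made were knockout against wild type and each time against untreated.

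All values are the deposited log2 values, in which 1 unit is nominally a doubling, although the transformation behind them is not given in the sources used here. For each gene they are written in the order replicate 1, then replicate 2. "Called" means a Benjamini-Hochberg adjusted p under 0.05 over all 30142 genes in limma's moderated test, and errors of differences are standard errors (SE). Array medians lay between 5.57 and 5.90, and 8 of the 64 genes had a mean under the median gene mean of 6. "Wild type" and "knockout" stand for the arrays labelled so. Esr1, which encodes the receptor, was not lower in the knockout: it ranged from 6.35 to 7.53 with a median of 6.93 in wild type and from 7.11 to 7.64 with a median of 7.48 in the knockout. Which part of Esr1 the probeset covers is not given in the sources used here, so it is no check of the labels.

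Both 18-hour replicates 2 stood apart from their label. The mean of 10 kidney genes known as higher in males lay at 8.79 to 9.75 in the other 7 wild type arrays and 15.90 in wild type 18 hours replicate 2, and at 12.08 to 16.29 in the other 7 knockout arrays and 8.75 in knockout 18 hours replicate 2. The labels were kept. Results that rest on these arrays are given over all 16 arrays and over 14 arrays, without that pair. Knockout 2 weeks replicate 1 lacked much of the 2-week change seen in the other 3 arrays of that time. As that is the change measured, no count of the change made without this array is support for it. The extracts held tubule RNA: 14 proximal tubule markers averaged 12.39 to 15.53 per array, with Lrp2, the receptor megalin, at 15.88 to 18.70. The 8 podocyte markers averaged 8.71 to 10.94, with Nphs1, nephrin of the filtration slit, at 9.96 to 13.23.

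To print the sequence beside the genotype values, 250 bases are shown for each of 6 genes, from the RefSeq promoter table on GRCm38.p6. They precede the start listed first there, which is not always the RefSeq start of the gene. The gene starts at 119554340 for Acsm2 and 84052144 for Acot3, right after the window. For Acsm1 (119617757), Acsm3 (119760883) and Acot12 (91741326) the gene starts inside the window. For Acot4 (84037254) it starts before the window, which lies inside the gene. Acsm2, Acsm3, Acot3 and Acot12 were called in the genotype comparison over 14 arrays, and Acsm1 and Acot4, of the same gene clusters as the first 3, were not. All 6 lie on the plus strand. Acsm2 is at chr7:119554090-119554339, Acsm1 at chr7:119617562-119617811 and Acsm3 at chr7:119760673-119760922. Acot4 is at chr12:84038129-84038378, Acot3 at chr12:84051894-84052143 and Acot12, outside both clusters, at chr13:91741271-91741520. Capitals mark matches, on either strand, to AGGTCA, the half-site bound by many nuclear receptors.
Acsm2: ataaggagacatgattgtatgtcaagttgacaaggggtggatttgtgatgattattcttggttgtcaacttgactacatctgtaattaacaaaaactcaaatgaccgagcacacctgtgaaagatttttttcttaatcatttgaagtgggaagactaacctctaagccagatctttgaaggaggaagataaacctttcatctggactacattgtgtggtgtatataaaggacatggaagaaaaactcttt
Acsm1: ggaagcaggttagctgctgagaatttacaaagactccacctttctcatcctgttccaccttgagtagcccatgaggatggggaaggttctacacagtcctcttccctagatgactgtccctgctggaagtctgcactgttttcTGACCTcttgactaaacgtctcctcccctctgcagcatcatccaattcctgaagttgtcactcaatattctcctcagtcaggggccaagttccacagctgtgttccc
Acsm3: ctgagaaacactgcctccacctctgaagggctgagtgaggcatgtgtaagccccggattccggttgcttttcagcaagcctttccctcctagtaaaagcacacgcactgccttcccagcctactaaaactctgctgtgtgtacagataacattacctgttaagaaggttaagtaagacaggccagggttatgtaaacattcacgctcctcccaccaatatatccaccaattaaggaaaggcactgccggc
Acot4: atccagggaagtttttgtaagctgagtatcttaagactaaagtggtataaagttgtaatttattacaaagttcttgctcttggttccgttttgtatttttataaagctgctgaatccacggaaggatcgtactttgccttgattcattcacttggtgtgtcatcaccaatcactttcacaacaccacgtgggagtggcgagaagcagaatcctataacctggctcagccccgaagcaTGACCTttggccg
Acot3: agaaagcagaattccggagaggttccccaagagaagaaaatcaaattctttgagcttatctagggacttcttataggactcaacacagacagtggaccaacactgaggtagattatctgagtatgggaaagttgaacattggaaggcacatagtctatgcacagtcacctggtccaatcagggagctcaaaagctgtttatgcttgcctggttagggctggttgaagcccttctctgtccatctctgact
Acot12: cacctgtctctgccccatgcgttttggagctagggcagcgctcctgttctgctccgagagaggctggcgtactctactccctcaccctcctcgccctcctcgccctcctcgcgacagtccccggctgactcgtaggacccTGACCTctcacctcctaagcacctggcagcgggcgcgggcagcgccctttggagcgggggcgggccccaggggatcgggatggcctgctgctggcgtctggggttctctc
Of these windows, those of Acsm1, Acot4 and Acot12 each hold 1 match, and those of Acsm2, Acsm3 and Acot3 hold none. The first base of the match is at -107, -13 and -110 from the listed start. The Acot4 and Acot12 matches lie downstream of the RefSeq start of the gene. Over the members with a window in the table, 11 of 56 (19.6%) held the half-site, against 3740 of 27025 windows (13.8%) of all genes. The direct repeat AGGTCANAGGTCA occurred in 0 of the 56 and in 0.037% of all windows, and the oestrogen response element GGTCANNNTGACC in 0 of the 56 and in 0.0629%. Both longer motifs contain the half-site or all but 1 base of it. A match is a run of letters, not a bound site, and no match says only that these letters are not in this window.

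Single genes of several classes differed between the genotypes, up to 6.79 units for Acsm3. Averaged over the 4 times, 0 of 64 members and 0% of all genes were called over 16 arrays, with 16 members and 3514 genes at an unadjusted p under 0.05. Over 14 arrays, 11 members were called (17.2% of them, against 1.72% of all genes): 6 were higher in the knockout and 5 lower. Leaving out 1 array of the 16 gave 0 to 12 called members, with 12 without knockout 2 weeks replicate 2 and 2 without wild type 18 hours replicate 2. In the 14-array fit the single 18-hour array of each genotype is taken to vary as the other groups do. The arrays left out read near the other genotype in called genes such as Acsm3, at 14.04 in wild type and 5.83 in the knockout. Leaving them out therefore widens such differences, and the 14-array calls are no independent support for them. The median difference of the members was 0.04 over 14 arrays, beside 0.00 for all genes.

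**Figure D1:**
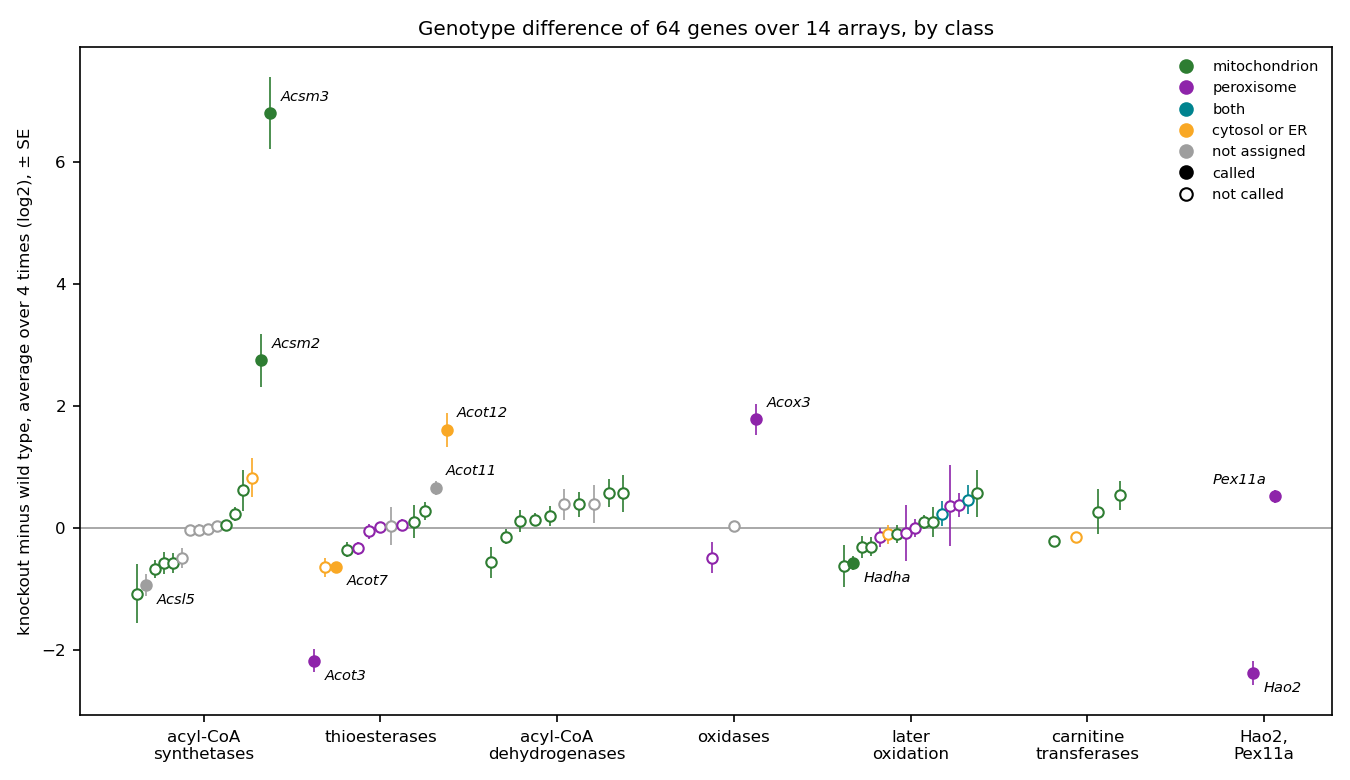
Knockout minus wild type difference in deposited log2 units, averaged over the 4 times in the 14-array fit, for the 64 genes by class; bars are SE, colours the compartment, and filled points the 11 called genes. Acsm3 (6.79) and Acsm2 (2.75) lie highest and Hao2 (-2.37) and Acot3 (-2.17) lowest, while no dehydrogenase and no carnitine transferase was called.

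Among the synthetases, Acsm3 and Acsm2, mitochondrial enzymes that activate medium-chain acids, were higher in the knockout. Wild type Acsm3 read 7.97 and 6.36 untreated, 5.78 and 14.04 at 18 hours, 7.45 and 7.21 at 6 days, and 7.83 and 6.50 at 2 weeks. Knockout Acsm3 read 14.53 and 13.50 untreated, 13.28 and 5.83 at 18 hours, 14.36 and 13.41 at 6 days, and 15.26 and 11.54 at 2 weeks. Wild type 18 hours replicate 2 is the only wild type array above 8, and knockout 18 hours replicate 2 the only knockout array below it, at 14.04 and 5.83; without any 18-hour array the 6 wild type values (6.36 to 7.97, median 7.33) and the 6 knockout values (11.54 to 15.26, median 13.93) did not overlap. The difference was 6.79 ± 0.59 (adjusted p = 0.000859) over 14 arrays and 4.82 ± 1.28 (adjusted p = 0.261) over 16.

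Wild type Acsm2 read 13.37 and 14.24 untreated, 13.94 and 16.45 at 18 hours, 13.21 and 12.64 at 6 days, and 11.39 and 11.96 at 2 weeks. Knockout Acsm2 read 16.55 and 16.40 untreated, 16.02 and 14.12 at 18 hours, 16.14 and 15.57 at 6 days, and 16.44 and 13.57 at 2 weeks. Knockout values exceeded wild type values at each time other than 18 hours, but knockout 2 weeks replicate 2, at 13.57, lies within the untreated wild type range. The Acsm2 difference was 2.75 ± 0.43 (adjusted p = 0.0166) over 14 arrays and 2.20 ± 0.48 (adjusted p = 0.226) over 16. Acsl5, which activates long-chain fatty acids, was lower in the knockout. Wild type Acsl5 read 11.51 and 11.31 untreated, 12.54 and 11.13 at 18 hours, 12.32 and 12.34 at 6 days, and 12.05 and 11.21 at 2 weeks. Knockout Acsl5 read 10.80 and 11 untreated, 10.76 and 12.16 at 18 hours, 11.18 and 11.62 at 6 days, and 10.79 and 11.48 at 2 weeks. The genotypes overlapped in Acsl5, and its difference was -0.93 ± 0.18 (adjusted p = 0.0399) over 14 arrays and -0.58 ± 0.26 (adjusted p = 0.417) over 16.

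Thioesterases moved in both directions. Acot12, the cytosolic enzyme that hydrolyses acetyl-CoA, was higher in the knockout. Wild type Acot12 read 13.30 and 13.38 untreated, 13.18 and 14.88 at 18 hours, 12.87 and 12.95 at 6 days, and 11.84 and 12 at 2 weeks. Knockout Acot12 read 14.89 and 14.62 untreated, 14.36 and 13.04 at 18 hours, 14.51 and 13.98 at 6 days, and 15.35 and 13.48 at 2 weeks. Outside the 18-hour arrays the highest wild type value (13.38) lay below the lowest knockout value (13.48). Its difference was 1.61 ± 0.28 (adjusted p = 0.026) over 14 arrays and 1.23 ± 0.32 (adjusted p = 0.254) over 16. Acot11, a thioesterase with a lipid-binding START domain, was higher by a smaller amount. Wild type Acot11 read 7.08 and 6.89 untreated, 6.57 and 7.54 at 18 hours, 6.62 and 6.78 at 6 days, and 6.20 and 6.26 at 2 weeks. Knockout Acot11 read 7.40 and 7.34 untreated, 7.22 and 6.84 at 18 hours, 7.49 and 7.22 at 6 days, and 7.48 and 6.88 at 2 weeks. Knockout 2 weeks replicate 2, at 6.88, lies within the range of the wild type arrays. The Acot11 difference was 0.66 ± 0.11 (adjusted p = 0.021) over 14 arrays and 0.49 ± 0.14 (adjusted p = 0.272) over 16.

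Acot3, a peroxisomal thioesterase for long-chain acyl-CoA, was lower in the knockout and already so in untreated mice. Wild type Acot3 read 11.25 and 11.92 untreated, 9.83 and 7.93 at 18 hours, 10.36 and 9.98 at 6 days, and 8.16 and 9.16 at 2 weeks. Knockout Acot3 read 8.12 and 8.17 untreated, 8.33 and 9.88 at 18 hours, 7.17 and 7.44 at 6 days, and 7.59 and 7.95 at 2 weeks. At 6 days and in untreated mice every knockout value lay below every wild type value by over 2 units, and at 2 weeks the groups lay closer, with 8.16 as the lowest wild type and 7.95 as the highest knockout value. The average difference was -2.17 ± 0.19 (adjusted p = 0.000842) over 14 arrays and -1.74 ± 0.30 (adjusted p = 0.18) over 16. Acot7, a cytosolic thioesterase best known from brain, was lower too. Wild type Acot7 read 7.42 and 7.21 untreated, 7.61 and 6.64 at 18 hours, 7.68 and 7.64 at 6 days, and 6.81 and 6.48 at 2 weeks. Knockout Acot7 read 6.60 and 6.58 untreated, 6.70 and 7.71 at 18 hours, 6.76 and 6.84 at 6 days, and 6.54 and 6.76 at 2 weeks. The knockout values of 2 weeks, 6.54 and 6.76, overlap the wild type values of that time, 6.81 and 6.48. Acot7 differed by -0.63 ± 0.08 (adjusted p = 0.00749) over 14 arrays and by -0.38 ± 0.16 (adjusted p = 0.406) over 16.

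**Figure D2:**
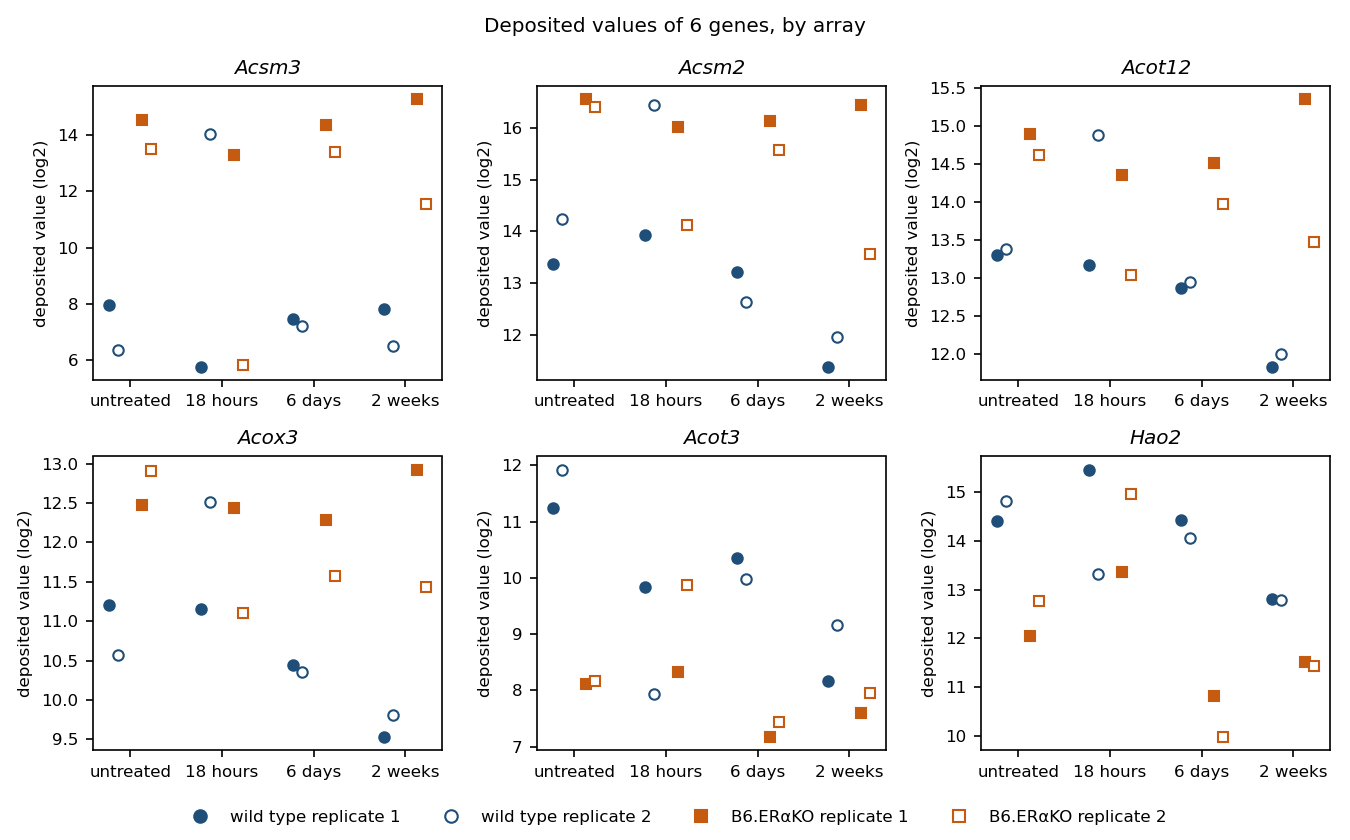
Deposited log2 values of Acsm3, Acsm2, Acot12, Acox3, Acot3 and Hao2 in each of the 16 arrays, by time after serum; circles are wild type, squares B6.ERαKO, filled symbols replicate 1 and open symbols replicate 2. At 18 hours the replicate 2 arrays lie with the other genotype, as Acsm3 shows at 14.04 in wild type and 5.83 in the knockout.

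Of the oxidation genes, Acox3, the peroxisomal oxidase of branched-chain acyl-CoA, was higher in the knockout. Wild type Acox3 read 11.21 and 10.57 untreated, 11.15 and 12.51 at 18 hours, 10.45 and 10.36 at 6 days, and 9.53 and 9.81 at 2 weeks. Knockout Acox3 read 12.48 and 12.90 untreated, 12.44 and 11.10 at 18 hours, 12.29 and 11.57 at 6 days, and 12.92 and 11.43 at 2 weeks. Apart from the 18-hour arrays, every knockout value (11.43 to 12.92) exceeded every wild type value (9.53 to 11.21). The Acox3 difference was 1.78 ± 0.26 (adjusted p = 0.0119) over 14 arrays and 1.44 ± 0.29 (adjusted p = 0.218) over 16. Acox2, the oxidase of bile acid intermediates, was not called: -0.48 ± 0.26 (adjusted p = 0.459) over 14 arrays.

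Hao2, the peroxisomal oxidase of long-chain 2-hydroxy acids, was lower in the knockout. Wild type Hao2 read 14.40 and 14.81 untreated, 15.46 and 13.31 at 18 hours, 14.44 and 14.06 at 6 days, and 12.81 and 12.78 at 2 weeks. Knockout Hao2 read 12.04 and 12.76 untreated, 13.36 and 14.97 at 18 hours, 10.81 and 9.97 at 6 days, and 11.52 and 11.43 at 2 weeks. Without the 18-hour arrays, the highest knockout value (12.76) lay just below the lowest wild type value (12.78). The Hao2 difference was -2.37 ± 0.19 (adjusted p = 0.0006) over 14 arrays and -1.90 ± 0.32 (adjusted p = 0.176) over 16. Hadha, the subunit of the mitochondrial trifunctional protein with hydratase and dehydrogenase activity, was lower by less. Wild type Hadha read 11.33 and 11.82 untreated, 11.98 and 11.15 at 18 hours, 11.62 and 11.54 at 6 days, and 10.47 and 10.61 at 2 weeks. Knockout Hadha read 10.97 and 10.94 untreated, 10.98 and 11.48 at 18 hours, 10.80 and 10.83 at 6 days, and 10.77 and 10.51 at 2 weeks. Its wild type and knockout values overlapped at 2 weeks, where knockout replicate 1 read 10.77 against 10.47 and 10.61. Hadha differed by -0.57 ± 0.11 (adjusted p = 0.0412) over 14 arrays and by -0.40 ± 0.14 (adjusted p = 0.307) over 16. Its partner subunit, Hadhb, which carries the thiolase, was not called (-0.30 ± 0.18 (adjusted p = 0.514)).

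Pex11a, which acts in peroxisome division, was slightly higher in the knockout over 14 arrays. Wild type Pex11a read 9.40 and 9.30 untreated, 9.31 and 9.60 at 18 hours, 8.99 and 9.50 at 6 days, and 8.24 and 7.98 at 2 weeks. Knockout Pex11a read 9.69 and 9.64 untreated, 9.44 and 9.26 at 18 hours, 9.57 and 9.45 at 6 days, and 9.57 and 9.42 at 2 weeks. The gap was widest at 2 weeks, where wild type read 8.24 and 7.98 and the knockout 9.57 and 9.42. The average Pex11a difference was 0.52 ± 0.11 (adjusted p = 0.0466) over 14 arrays and 0.46 ± 0.09 (adjusted p = 0.218) over 16. At 2 weeks alone it was 1.38 ± 0.18 (adjusted p = 0.0299) over 16 arrays, the only member called in that contrast (0.182% of all genes), and 1.38 ± 0.19 (adjusted p = 0.0591) over 14 arrays. With most single arrays left out, no member was called in that contrast, Pex11a included. The median difference of the members in it was 0.47, beside -0.06 for all genes. That median was 0.09 and 0.84 without knockout 2 weeks replicate 1 and 2, and 0.28 and 0.72 without wild type 2 weeks replicate 1 and 2.

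Within single times the calls were few. In untreated mice 0 members and 0% of all genes were called over 16 arrays, and over 14 arrays 1 member, Acot3, at -3.44 ± 0.34 (adjusted p = 0.00694), with 0.169% of all genes. At 6 days 0 members were called over 16 arrays (0.00664% of all genes), and 2 over 14 arrays (0.236% of all genes): Acot3 at -2.87 ± 0.34 (adjusted p = 0.0133) and Hao2 at -3.86 ± 0.34 (adjusted p = 0.00249). The Hao2 difference of 6 days is above that of untreated mice (-2.20 ± 0.34 over 14 arrays) in size; the difference between these differences was not tested. Acsm3 did not pass at either time over 14 arrays (6.85 ± 1.06 (adjusted p = 0.0583) untreated, 6.56 ± 1.06 (adjusted p = 0.0608) at 6 days), though its groups of 2 did not overlap. Over the 12 arrays without the 18-hour mice, 3 members (Acot12, Acox3 and Acsm3) were higher in all 6 knockout arrays than in all 6 wild type arrays, as were 0.594% of all genes, and 1 (Hao2) was lower in all 6, as were 0.717%.

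Called and uncalled genes occurred in the same gene clusters; differences between neighbours were not tested. On chromosome 7 the Acsm genes lie in the order Acsm5, Acsm2, Acsm1, Acsm4, Acsm3, with the protein-coding genes Thumpd1 and Ppp1ccb between Acsm4 and Acsm3. Over 14 arrays Acsm2 and Acsm3 were called higher, Acsm5 was 0.62 ± 0.34 (adjusted p = 0.466), Acsm1 was -1.07 ± 0.48 (adjusted p = 0.366), and Acsm4, whose values were 4.16 to 4.51, was 0.06 ± 0.06 (adjusted p = 0.71). On chromosome 12 the order is Acot2, Acot1, Acot4, Acot3, Acot5, Acot6. Acot3 was called lower, and Acot1 and Acot2 lay below 0 without a call. Acot1, the cytosolic form, was -0.64 ± 0.15 (adjusted p = 0.0719), Acot2, the mitochondrial form, -0.35 ± 0.12 (adjusted p = 0.235), and Acot4, which acts on succinyl-CoA in peroxisomes, -0.05 ± 0.12 (adjusted p = 0.905). Acot5 and Acot6 lay at 0.02 ± 0.08 and 0.06 ± 0.09. The windows of Acot3 and Acot4 printed above belong to adjacent genes, of which only Acot3 was called. The Acot genes of this cluster, and Acaa1a and Acaa1b, are close copies, so part of the signal of a probeset may come from a neighbour; this was not tested.

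**Figure D3:**
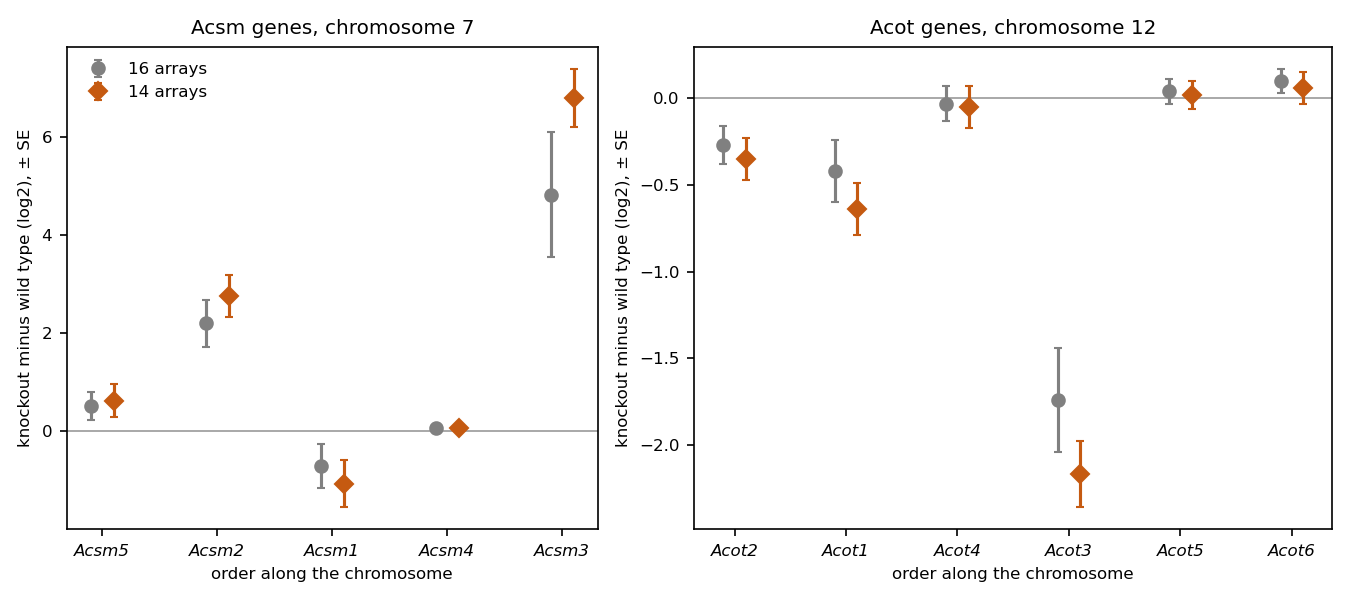
Knockout minus wild type difference (deposited log2 units, ± SE, averaged over the 4 times) of the Acsm genes of chromosome 7 and the Acot genes of chromosome 12 in chromosomal order, over 16 arrays (grey circles) and 14 arrays (orange diamonds). Acsm2 and Acsm3 stand above 0 and Acot3 below, in clusters that also hold genes near 0 such as Acsm4 (0.06) and Acot4 (-0.05).

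Genes with a known sex difference in kidney differed between the genotypes as well. The median knockout minus wild type difference was 4.28 for 10 male-higher genes and -3.68 for 5 female-higher genes over 16 arrays. Over 14 arrays it was 5.70 and -4.55. The male-higher genes are those by which the 2 arrays left out were seen to stand apart. Their values over 14 arrays are therefore no independent support for a difference. The part of these genes in the members' differences was not tested. Over 16 arrays 0 of these 15 genes were called. Markers of glomerular cell types lay lower in the knockout. Over 14 arrays the median difference was -0.83 for 7 glomerular endothelium markers and -0.73 for 5 mesangium markers, all below 0. The part of tissue make-up in the members' differences was not tested. Podocyte markers had a median difference of -0.88 over 14 arrays with 0 of 8 called, and proximal tubule markers one of 0.22 with 0 of 14 called. By compartment, 2 of 31 mitochondrial members were called higher and 1 lower, and of 14 peroxisomal members 2 were called higher and 2 lower; the medians were 0.10 and -0.03.

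At 2 weeks after serum many oxidation genes were lower, with both genotypes pooled. Of the 64 members 23 were lower (35.9%, against 4.24% of all genes) and 2 were higher (3.12%, against 5.10% of all genes). The median change of the members was -0.84, beside 0.09 for all genes. Most members are brighter than the median gene, and the shares over all genes include the dim ones. In a fit of only the genes at or above the median gene mean, 1799 genes and 30 members were called lower. In it 1044 genes and 1 member were higher, and the median change was -0.02 for all its genes and -0.88 for the members. That fit holds fewer genes and members than the full one, in which 1279 genes and 23 members were lower. Both shares called lower are therefore larger in it, above 4.24% for all its genes and above 35.9% for the members. In these bulk extracts, less tubule tissue carried over with the glomeruli, fewer tubule cells and less RNA of a gene per cell cannot be told apart. Over 16 arrays every class had lower calls: 5 of 10 dehydrogenases, 8 of 16 later enzymes, 2 of 4 carnitine transferases, 3 of 16 synthetases, 3 of 13 thioesterases, 1 of 3 oxidases, and Pex11a. Genes of both organelles were among them, with 13 of 31 lower, 1 higher and a median of -0.85 for the mitochondrion, and 7 of 14 lower and a median of -1 for the peroxisome. Over 14 arrays 14 members were called, all lower (21.9%, against 1.87% of all genes; 2.22% of all genes were higher). They were 2 dehydrogenases, 5 later enzymes, 1 carnitine transferase, 2 synthetases, 2 thioesterases, Pex11a and Hao2, with 0 of 3 oxidases; 8 were mitochondrial and 6 peroxisomal. Of the 23 lower calls over 16 arrays 12 were kept and 11 lost: Cpt1a, Acadl, Acad11, Acad12, Hadhb, Acaa2, Echdc3, Hsd17b4, Acox2, Acsm5 and Acot13, with adjusted p of 0.0514 to 0.0838 over 14 arrays. Both higher calls, Cpt1c and Acot9, were lost too (0.0614 and 0.0649), and Hao2 and Hadha were gained. The changes themselves are the same in both fits, since the contrast uses no 18-hour array. The falls below are those of 16 arrays. Leaving out single arrays changed the number called over all genes too, so such changes are not particular to the members. The count of 25 over 16 arrays depended on single arrays: it was 44 without knockout 2 weeks replicate 1, 15 without knockout 2 weeks replicate 2, 11 and 3 without wild type untreated replicate 1 and 2, and 4 and 1 without knockout untreated replicate 1 and 2.

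**Figure D4:**
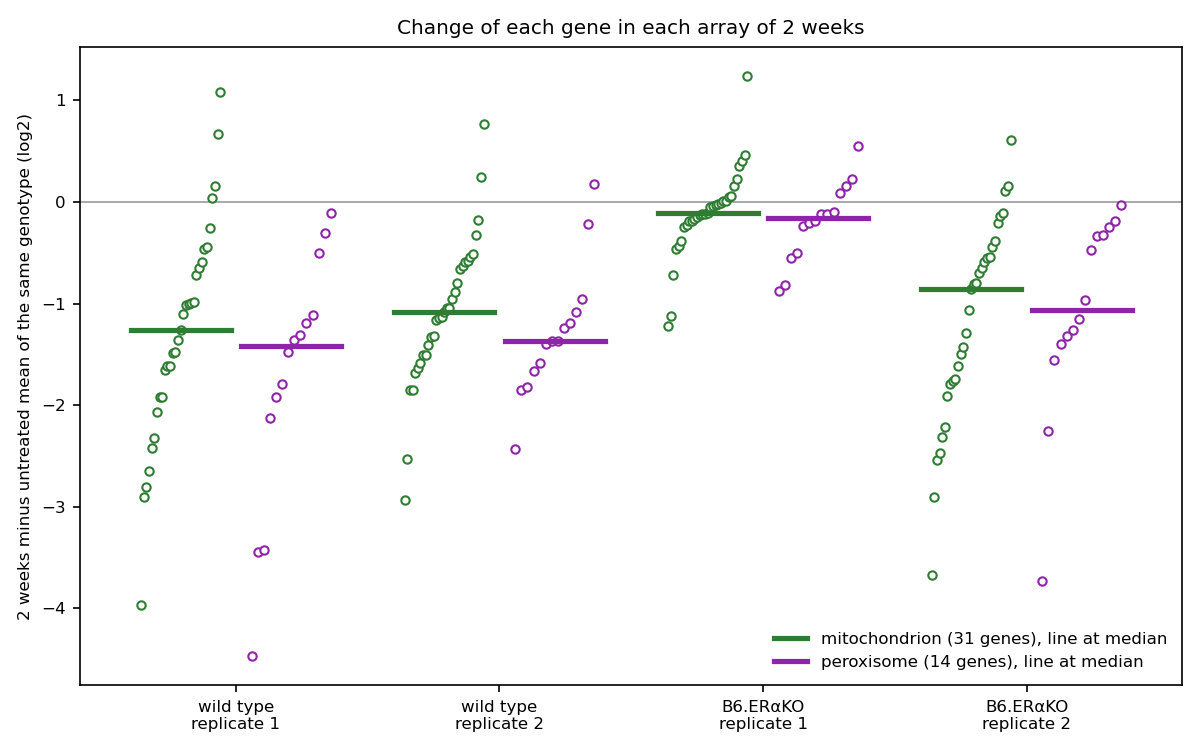
Change of each mitochondrial (green, 31 genes) and peroxisomal (purple, 14 genes) member in each of the 4 arrays of 2 weeks, as its deposited log2 value minus the untreated mean of the same genotype; lines are medians. The medians are -1.26 and -1.42, -1.08 and -1.37, -0.11 and -0.16, and -0.86 and -1.06 from left to right, so knockout replicate 1 lies near 0.

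By array, the median change of the 64 members from the untreated mean of their own genotype stood at -1.17 and -1.06 in the wild type pair, at -0.05 in knockout replicate 1 and at -0.80 in knockout replicate 2. In wild type alone 18 members were lower (3.23% of all genes) and 2 higher (4.81% of all genes); the count of 20 was 36 without either knockout array of 2 weeks, 3 without wild type 2 weeks replicate 2, and 2 and 0 without wild type untreated replicate 1 and 2. In the knockout alone 0 members were called over 16 arrays (0.109% of all genes). Leaving out knockout 2 weeks replicate 1 gave 17, but that rests on the 1 remaining knockout array of 2 weeks, which is taken to vary as the other groups do, after the array without the fall was dropped, so it is no test of the fall. The difference between the 2-week responses of the genotypes called 0 members and 0% of all genes. An unadjusted p under 0.05 was found for 10 members and 2244 genes. The median response difference of the members was 0.55, beside -0.06 for all genes. It depended on single arrays of 2 weeks: it was -0.03 and 1.09 without knockout replicate 1 and 2, and 0.38 and 0.60 without wild type replicate 1 and 2.

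Some genes for the entry of fatty acids into mitochondria were among those with lower RNA. Cpt1a, the carnitine palmitoyltransferase of liver and kidney, fell by 1.29 ± 0.32 (adjusted p = 0.0337). Wild type Cpt1a read 15.11 and 15.44 untreated, 14.96 and 15.47 at 18 hours, 14.88 and 15.09 at 6 days, and 13.66 and 13.77 at 2 weeks. Knockout Cpt1a read 15.81 and 15.78 untreated, 15.12 and 14.16 at 18 hours, 15.52 and 15.29 at 6 days, and 15.57 and 14.01 at 2 weeks. The 3 arrays other than knockout replicate 1 lie below every untreated value. Cpt1b, the muscle form, fell by 0.82 ± 0.15 (adjusted p = 0.0154). Wild type Cpt1b read 9.25 and 8.93 untreated, 9.07 and 8.36 at 18 hours, 8.64 and 8.69 at 6 days, and 7.73 and 7.68 at 2 weeks. Knockout Cpt1b read 8.81 and 8.79 untreated, 8.53 and 8.60 at 18 hours, 7.96 and 7.69 at 6 days, and 8.65 and 8.42 at 2 weeks. Its lowest values are those of wild type 2 weeks and knockout 6 days replicate 2. Cpt2, which reforms the acyl-CoA inside, was not called (-1.39 ± 0.43 (adjusted p = 0.0662)). Wild type Cpt2 read 10.72 and 11.65 untreated, 10.98 and 11.58 at 18 hours, 11.07 and 11.03 at 6 days, and 8.86 and 10.29 at 2 weeks. Knockout Cpt2 read 11.33 and 11.59 untreated, 11 and 10.76 at 18 hours, 11.31 and 10.94 at 6 days, and 11.34 and 9.24 at 2 weeks. Knockout replicate 1, at 11.34, was unlike the other 3, which lie between 8.86 and 10.29. Cpt1c, a form of the endoplasmic reticulum best known from neurons, was one of the 2 higher genes, by 0.38 ± 0.09 (adjusted p = 0.0271). Wild type Cpt1c read 5.66 and 5.63 untreated, 5.47 and 5.43 at 18 hours, 5.86 and 5.84 at 6 days, and 6.22 and 6.22 at 2 weeks. Knockout Cpt1c read 5.63 and 5.54 untreated, 5.59 and 5.58 at 18 hours, 5.63 and 5.72 at 6 days, and 5.55 and 5.98 at 2 weeks. That rise rests on wild type, at 6.22 in both arrays, and on knockout replicate 2, at 5.98.

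Of the acyl-CoA dehydrogenases, which take the first step of each mitochondrial cycle, those for very long, long and medium chains fell, the long-chain enzyme over 16 arrays only. Acadm, the medium-chain enzyme, fell by 1.66 ± 0.35 (adjusted p = 0.0233). Wild type Acadm read 14.93 and 14.95 untreated, 15.12 and 14.27 at 18 hours, 15.08 and 14.69 at 6 days, and 12.04 and 12.41 at 2 weeks. Knockout Acadm read 13.89 and 14.05 untreated, 13.93 and 14.90 at 18 hours, 13.89 and 13.47 at 6 days, and 14.19 and 12.53 at 2 weeks. Wild type lost over 2 units at 2 weeks, and knockout replicate 1 read slightly above its untreated values. Acadvl, the very-long-chain enzyme, fell by 1.01 ± 0.19 (adjusted p = 0.0186). Wild type Acadvl read 11.06 and 11.44 untreated, 11.32 and 11.62 at 18 hours, 10.78 and 11.14 at 6 days, and 9.75 and 9.93 at 2 weeks. Knockout Acadvl read 11.23 and 11.42 untreated, 11.11 and 11.05 at 18 hours, 11.17 and 10.88 at 6 days, and 11.15 and 10.26 at 2 weeks. The lowest value at another time was 10.78, above 9.75, 9.93 and 10.26 of 2 weeks. Acadl, the long-chain enzyme, fell by 0.90 ± 0.25 (adjusted p = 0.0496). Wild type Acadl read 11.74 and 12.41 untreated, 12.49 and 12.87 at 18 hours, 12.01 and 12.11 at 6 days, and 10.82 and 11.04 at 2 weeks. Knockout Acadl read 12.43 and 12.52 untreated, 12.45 and 12.04 at 18 hours, 12.41 and 12.37 at 6 days, and 12.46 and 11.19 at 2 weeks. Knockout replicate 1 again lies with the untreated arrays. Acads, the short-chain enzyme, was not called (-0.85 ± 0.30 (adjusted p = 0.0945)). Wild type Acads read 8.63 and 9.11 untreated, 8.86 and 9.55 at 18 hours, 8.41 and 8.66 at 6 days, and 7.87 and 8.07 at 2 weeks. Knockout Acads read 9.50 and 9.53 untreated, 9.25 and 8.47 at 18 hours, 9.36 and 8.67 at 6 days, and 9.41 and 8.01 at 2 weeks. Untreated wild type arrays of Acads, 8.63 and 9.11, lie below the untreated knockout arrays, 9.50 and 9.53.

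The family members Acad10, Acad11 and Acad12 had alike profiles. Acad11 changed by -1.40 ± 0.36 (adjusted p = 0.0385) and Acad12 by -1.09 ± 0.30 (adjusted p = 0.048), both called over 16 arrays only, and Acad10 by -1.25 ± 0.36 (adjusted p = 0.0542), not called. Wild type Acad10 read 9.61 and 9.68 untreated, 9.90 and 10.20 at 18 hours, 9.12 and 9.04 at 6 days, and 8.04 and 8.01 at 2 weeks. Knockout Acad10 read 10.26 and 10.28 untreated, 9.85 and 9.25 at 18 hours, 9.85 and 8.96 at 6 days, and 10.43 and 8.36 at 2 weeks. Knockout 2 weeks replicate 1, at 10.43, was above both untreated knockout arrays of Acad10. Wild type Acad11 read 10.51 and 10.96 untreated, 10.97 and 11.25 at 18 hours, 10.27 and 10.12 at 6 days, and 8.49 and 9.62 at 2 weeks. Knockout Acad11 read 11.19 and 11.37 untreated, 10.90 and 10.57 at 18 hours, 10.62 and 9.80 at 6 days, and 11.04 and 9.28 at 2 weeks. In Acad11 that array, at 11.04, was just under both of them. Wild type Acad12 read 8.23 and 8.45 untreated, 8.71 and 8.79 at 18 hours, 7.74 and 7.77 at 6 days, and 6.90 and 6.86 at 2 weeks. Knockout Acad12 read 8.78 and 8.69 untreated, 8.51 and 8.04 at 18 hours, 8.45 and 7.50 at 6 days, and 8.83 and 7.20 at 2 weeks. In Acad12 it was again above both, at 8.83. The other 3 dehydrogenases, Acad8, Acad9 and Acadsb, changed by -0.59 to -0.43 at 2 weeks and were not called.

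In the later mitochondrial steps the hydratase Echs1, which adds water to short enoyl-CoA, fell by 1.36 ± 0.27 (adjusted p = 0.0205). Wild type Echs1 read 10.10 and 10.41 untreated, 10.43 and 10.51 at 18 hours, 9.72 and 9.79 at 6 days, and 8.33 and 8.74 at 2 weeks. Knockout Echs1 read 10.24 and 10.44 untreated, 10.06 and 10.23 at 18 hours, 9.98 and 9.35 at 6 days, and 10.08 and 8.58 at 2 weeks. Values of 2 weeks other than knockout replicate 1 lie between 8.33 and 8.74, below all values of untreated mice. Hadhb, the thiolase subunit of the trifunctional protein, fell by 0.90 ± 0.21 (adjusted p = 0.0295). Wild type Hadhb read 10.23 and 10.89 untreated, 10.59 and 10.22 at 18 hours, 10.37 and 10.05 at 6 days, and 8.91 and 9.52 at 2 weeks. Knockout Hadhb read 10.11 and 10.16 untreated, 9.79 and 10.01 at 18 hours, 10.00 and 9.57 at 6 days, and 10.01 and 9.34 at 2 weeks. Hadha, listed above, changed by -0.67 ± 0.19 (adjusted p = 0.0502) and was not called, but was over 14 arrays (-0.67 ± 0.14 (adjusted p = 0.0426)). Acaa2, the mitochondrial thiolase, fell by 1.60 ± 0.42 (adjusted p = 0.0407). Wild type Acaa2 read 12.73 and 13.64 untreated, 13.18 and 12.10 at 18 hours, 12.69 and 12.42 at 6 days, and 10.38 and 12.56 at 2 weeks. Knockout Acaa2 read 12.60 and 12.89 untreated, 12.24 and 12.53 at 18 hours, 11.85 and 11.47 at 6 days, and 11.53 and 11 at 2 weeks. Here the wild type replicates of 2 weeks were 10.38 and 12.56, a spread larger than the change of replicate 2. Eci1, the isomerase for unsaturated chains, fell by 0.92 ± 0.17 (adjusted p = 0.0176). Wild type Eci1 read 10.44 and 10.86 untreated, 10.82 and 10.72 at 18 hours, 10.37 and 10.51 at 6 days, and 9.17 and 9.33 at 2 weeks. Knockout Eci1 read 10.33 and 10.47 untreated, 10.48 and 10.46 at 18 hours, 10.09 and 9.82 at 6 days, and 10.38 and 9.54 at 2 weeks. Wild type values of 2 weeks were the lowest of all.

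Echdc3, a relative of the enoyl-CoA hydratases, fell by 0.68 ± 0.17 (adjusted p = 0.0374). Wild type Echdc3 read 8.38 and 8.56 untreated, 8.31 and 8.11 at 18 hours, 7.59 and 7.87 at 6 days, and 7.46 and 7.33 at 2 weeks. Knockout Echdc3 read 7.59 and 8 untreated, 7.97 and 8.18 at 18 hours, 7.75 and 7.11 at 6 days, and 7.81 and 7.21 at 2 weeks. Its untreated wild type arrays, 8.38 and 8.56, are above both untreated knockout arrays, 7.59 and 8.00. Hadh, the hydroxyacyl-CoA dehydrogenase of medium and short chains, was not called (-1.58 ± 0.45 (adjusted p = 0.0521)). Wild type Hadh read 12.36 and 13.32 untreated, 12.79 and 13.30 at 18 hours, 12.27 and 12.46 at 6 days, and 10.19 and 11.69 at 2 weeks. Knockout Hadh read 13.26 and 13.42 untreated, 13.05 and 12.55 at 18 hours, 13.03 and 12.43 at 6 days, and 13.15 and 11.03 at 2 weeks. Wild type replicates of 2 weeks stood apart, at 10.19 and 11.69. Of the 5 later enzymes not shown array by array (Ech1, Echdc1, Echdc2, Eci2 and Ehhadh), changes at 2 weeks ran from -1.70 to -0.16 and none was called.

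Peroxisomal genes fell too, and Acaa1b had the smallest adjusted p of all members. Acaa1b and Acaa1a, the peroxisomal thiolases, fell by 1.55 ± 0.17 (adjusted p = 0.00191) and by 1.08 ± 0.18 (adjusted p = 0.013). Wild type Acaa1b read 10.29 and 10.86 untreated, 9.62 and 9.72 at 18 hours, 9.55 and 9.68 at 6 days, and 8.44 and 8.72 at 2 weeks. Knockout Acaa1b read 10.13 and 10.22 untreated, 9.80 and 9.55 at 18 hours, 8.97 and 8.53 at 6 days, and 9.36 and 8.78 at 2 weeks. Every array after serum lies below every untreated array of Acaa1b, and knockout 2 weeks replicate 1, at 9.36, is part of the fall. Wild type Acaa1a read 9.68 and 10.07 untreated, 9.39 and 9.57 at 18 hours, 9.36 and 9.25 at 6 days, and 8.56 and 8.68 at 2 weeks. Knockout Acaa1a read 9.76 and 9.93 untreated, 9.54 and 9.27 at 18 hours, 9.02 and 8.69 at 6 days, and 9.35 and 8.53 at 2 weeks. In Acaa1a too, every array after serum lies below every untreated array, of which 9.68 is the lowest. Hsd17b4, the D-bifunctional protein of the peroxisome, fell by 0.92 ± 0.23 (adjusted p = 0.0336). Wild type Hsd17b4 read 10.18 and 10.90 untreated, 10.52 and 10.76 at 18 hours, 10.00 and 9.97 at 6 days, and 9.35 and 9.31 at 2 weeks. Knockout Hsd17b4 read 10.61 and 10.79 untreated, 10.62 and 10.14 at 18 hours, 10.70 and 10.36 at 6 days, and 10.57 and 9.55 at 2 weeks. Knockout replicate 1, at 10.57, lies within the range of the untreated arrays.

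Acox2 fell by 1.27 ± 0.33 (adjusted p = 0.0385), over 16 arrays only. Wild type Acox2 read 11.41 and 10.99 untreated, 11.64 and 11.13 at 18 hours, 10.96 and 10.63 at 6 days, and 9.29 and 9.83 at 2 weeks. Knockout Acox2 read 10.81 and 11.03 untreated, 10.94 and 11.74 at 18 hours, 9.94 and 8.84 at 6 days, and 10.68 and 9.36 at 2 weeks. The lowest value of Acox2, 8.84, is that of knockout 6 days replicate 2. Pex11a fell by 0.71 ± 0.13 (adjusted p = 0.0165); the change was -1.24 ± 0.18 (adjusted p = 0.011) in wild type and -0.17 ± 0.18 (adjusted p = 0.847) in the knockout, and the difference between them was not called (1.07 ± 0.26 (adjusted p = 0.607)). Eci3, a peroxisomal isomerase, had the most negative peroxisomal change, -2.41 ± 0.76 (adjusted p = 0.0678), and was not called. Wild type Eci3 read 12.87 and 13.18 untreated, 13.14 and 13.73 at 18 hours, 12.69 and 12.31 at 6 days, and 8.55 and 11.44 at 2 weeks. Knockout Eci3 read 13.44 and 13.41 untreated, 12.83 and 12.60 at 18 hours, 12.73 and 11.82 at 6 days, and 13.58 and 9.69 at 2 weeks. Wild type replicates of 2 weeks were 8.55 and 11.44, and knockout replicates 13.58 and 9.69. Hao2 was not called at 2 weeks over 16 arrays, but was over 14 (-1.37 ± 0.24 (adjusted p = 0.033) over 14; -1.37 ± 0.46 (adjusted p = 0.0804) over 16).

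Among synthetases 3 fell at 2 weeks. Acsm1 had the most negative change of all members, -2.75 ± 0.63 (adjusted p = 0.0275). Wild type Acsm1 read 14.01 and 14.05 untreated, 13.94 and 12.65 at 18 hours, 13.61 and 13.61 at 6 days, and 10.06 and 11.10 at 2 weeks. Knockout Acsm1 read 12.67 and 13.31 untreated, 12.36 and 13.96 at 18 hours, 12.09 and 11.05 at 6 days, and 12.56 and 9.32 at 2 weeks. Knockout replicate 2 read 9.32 and replicate 1 read 12.56, close to its untreated arrays. Acsm5, its medium-chain relative, fell by 1.73 ± 0.40 (adjusted p = 0.0271). Wild type Acsm5 read 12.32 and 12.15 untreated, 12.30 and 12.65 at 18 hours, 11.41 and 10.98 at 6 days, and 10.17 and 10.39 at 2 weeks. Knockout Acsm5 read 13.05 and 12.66 untreated, 12.91 and 12.40 at 18 hours, 11.94 and 10.75 at 6 days, and 12.40 and 10.32 at 2 weeks. The values of 6 days lie between those of untreated mice and those of wild type at 2 weeks. Acss1, the mitochondrial synthetase of acetyl-CoA, fell by 1.58 ± 0.27 (adjusted p = 0.0139). Wild type Acss1 read 10.80 and 11.63 untreated, 10.42 and 9.59 at 18 hours, 10.36 and 9.91 at 6 days, and 9.30 and 9.54 at 2 weeks. Knockout Acss1 read 10.59 and 10.69 untreated, 9.60 and 10.38 at 18 hours, 9.70 and 9.11 at 6 days, and 9.52 and 9.03 at 2 weeks. Knockout 2 weeks replicate 1 was part of this fall, at 9.52 against 10.59 and 10.69 in untreated mice. The 10 synthetases not shown array by array had changes of -1.03 to 0.29, and 6 of them were above 0; Acsbg1, Acsbg2, Acsbg3, Acsl6 and Acsm4 lay near the floor of the arrays, with no value above 5.71.

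Of the thioesterases, Acot4 fell by 0.89 ± 0.14 (adjusted p = 0.0125). Wild type Acot4 read 8.67 and 9.36 untreated, 8.94 and 8.88 at 18 hours, 8.55 and 8.54 at 6 days, and 7.53 and 7.61 at 2 weeks. Knockout Acot4 read 8.85 and 8.63 untreated, 8.67 and 8.78 at 18 hours, 8.13 and 7.94 at 6 days, and 8.56 and 8.27 at 2 weeks. The fall was larger in wild type than in the knockout, and that difference was not called (1.11 ± 0.28 (adjusted p = 0.607)). Acot3 fell by 1.65 ± 0.43 (adjusted p = 0.0388), from the values given above. By array Acot3 changed by -3.43 and -2.43 in wild type and by -0.55 and -0.19 in the knockout, and that difference was not called. Acot13, a thioesterase of the hotdog-fold family that was left unassigned by compartment, fell by 1.45 ± 0.36 (adjusted p = 0.0332), over 16 arrays only. Wild type Acot13 read 13.97 and 14.38 untreated, 13.97 and 14.01 at 18 hours, 13.81 and 13.90 at 6 days, and 11.82 and 12.56 at 2 weeks. Knockout Acot13 read 13.99 and 13.96 untreated, 13.81 and 14.08 at 18 hours, 13.80 and 13.22 at 6 days, and 14.05 and 12.06 at 2 weeks. Acot9, a mitochondrial thioesterase, was the other gene to rise, by 0.71 ± 0.18 (adjusted p = 0.0335). Wild type Acot9 read 10.29 and 9.47 untreated, 10.43 and 10.66 at 18 hours, 10.23 and 10.55 at 6 days, and 10.96 and 10.65 at 2 weeks. Knockout Acot9 read 10.44 and 10.28 untreated, 10.50 and 10.34 at 18 hours, 10.82 and 11.02 at 6 days, and 10.76 and 10.96 at 2 weeks. All 4 values of 2 weeks, 10.65 to 10.96, are above all 4 untreated values, of which wild type replicate 2 was lowest at 9.47. Acot8, a peroxisomal thioesterase of broad range, fell in the test within wild type (-0.73 ± 0.20 (adjusted p = 0.0498)); the difference from the knockout was not called (0.61 ± 0.29 (adjusted p = 0.664)). Wild type Acot8 read 9.24 and 9.26 untreated, 9.05 and 8.68 at 18 hours, 8.81 and 9.07 at 6 days, and 8.76 and 8.29 at 2 weeks. Knockout Acot8 read 8.76 and 8.66 untreated, 8.58 and 8.98 at 18 hours, 8.67 and 8.45 at 6 days, and 8.51 and 8.68 at 2 weeks. The 5 thioesterases not shown array by array (Acot1, Acot2, Acot5, Acot6 and Acot10) changed by -0.73 to -0.10, none called.

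**Figure D5:**
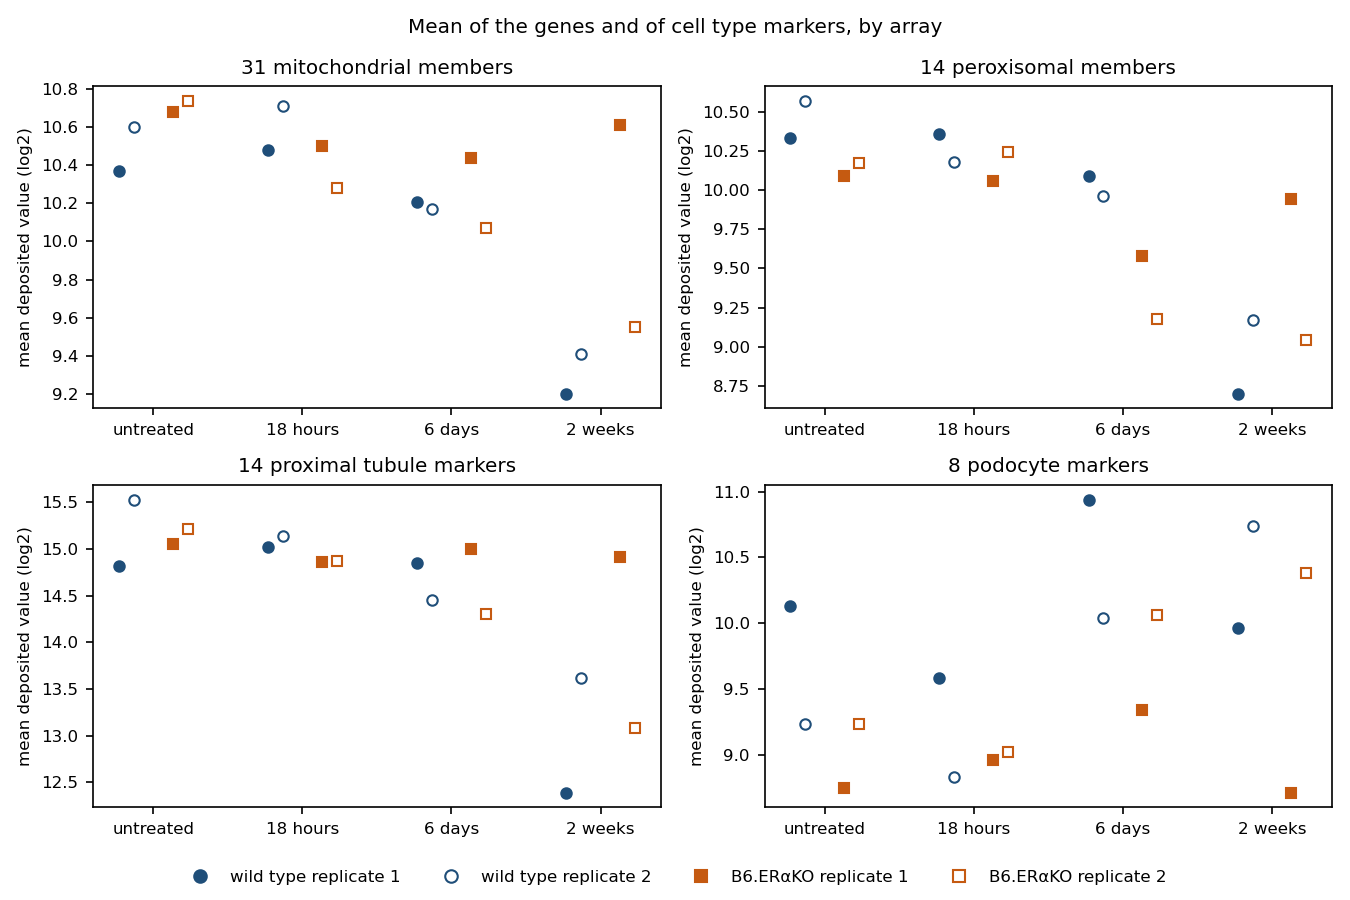
Mean deposited log2 value of the 31 mitochondrial members, 14 peroxisomal members, 14 proximal tubule markers and 8 podocyte markers in each array; circles are wild type, squares B6.ERαKO, filled symbols replicate 1, open symbols replicate 2. At 2 weeks the mitochondrial, peroxisomal and tubule means are low in 3 arrays, and knockout replicate 1 lies at 10.61, 9.94 and 14.92.

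Tubule markers moved with the 2-week fall. Of the 14 proximal tubule markers 9 were called lower over 16 arrays and 2 over 14 (median change -1.71 in both), and their mean was 14.82 to 15.53 in untreated mice and 12.39 to 14.92 at 2 weeks. By array the median change of these markers was -2.78 and -1.56 in wild type and -0.22 and -2.28 in the knockout. Tubule injury markers had 2 of 7 called higher over 16 arrays and 0 over 14 (median 1.69), macrophage markers 4 and 3 of 9 (median 0.40) and podocyte markers 0 of 8 in both (median 0.55). With the tubule marker mean minus the podocyte marker mean of each array as a covariate, 1 of 64 members stayed called at 2 weeks, Acaa1b. The median change of the members was then -0.30. Over all genes 52 were called lower and 789 higher in that fit, against 1279 and 1536 without the covariate. The drop in lower calls was thus not particular to the members, and its cause was not tested.

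Earlier times showed little. At 18 hours 0 members and 0% of all genes were called, with 4 members and 1266 genes at an unadjusted p under 0.05, and the median change of the members was -0.02. At 6 days 1 member was called, Acaa1b, which fell by 1.19 ± 0.17 (adjusted p = 0.02) (0.889% of all genes called); it was -1.19 ± 0.18 (adjusted p = 0.0621) over 14 arrays. The median of the members at 6 days was -0.30 and 52 of 64 were below 0, beside 0.01 for all genes. All 14 peroxisomal members were below 0 at 6 days, with a median of -0.60, and the 31 mitochondrial members had a median of -0.33. Leaving out 1 array gave 0 to 6 called members at 6 days: 6 without either knockout array of 2 weeks, 2 without either wild type array of 18 hours, and 0 without wild type untreated replicate 2, either knockout untreated array, either wild type array of 6 days or knockout 6 days replicate 2.

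Genes of the same pathways outside the symbol rule were read from a list of 63, of which 54 were measured. At 2 weeks 24 were lower over 16 arrays (4.24% of all genes) and 12 over 14 (1.87% of all genes), with 0 higher and a median of -0.79 in both. The values that follow are those of 16 arrays; Slc25a20, Decr1 and Etfa were not called over 14 (adjusted p = 0.0644, 0.0559 and 0.0858). The lower genes included Cat, the catalase that removes the hydrogen peroxide made by oxidases (-2.23 ± 0.47 (adjusted p = 0.023)), Slc22a5, the carnitine importer (-1.75 ± 0.35 (adjusted p = 0.0211)), Slc25a20, which exchanges acylcarnitine across the inner membrane (-0.73 ± 0.18 (adjusted p = 0.0355)), and Decr1 and Decr2, the reductases for unsaturated chains (-1.14 ± 0.26 (adjusted p = 0.0282) and -1.03 ± 0.18 (adjusted p = 0.015)). The peroxisomal importer Abcd3 (-1.05 ± 0.22 (adjusted p = 0.0231)), the CoA hydrolase Nudt7 (-0.93 ± 0.13 (adjusted p = 0.00747)), the electron carrier Etfa (-1.26 ± 0.36 (adjusted p = 0.0499)) and the regulator Hnf4a (-0.95 ± 0.19 (adjusted p = 0.0209)) were among the others. In the genotype average 0 of 54 were called over 16 arrays and 4 over 14. Angptl4, a secreted lipase inhibitor, was higher in the knockout (1.15 ± 0.16 (adjusted p = 0.00903)). Lower were Cyp4a14, which hydroxylates the far end of fatty acids (-5.61 ± 0.88 (adjusted p = 0.0171)), Hacl1, the peroxisomal lyase of 2-hydroxyacyl-CoA (-1.79 ± 0.18 (adjusted p = 0.00163)), and the fatty acid binding protein Fabp1 (-1.64 ± 0.22 (adjusted p = 0.00925)). Wild type Hacl1 read 9.79 and 10.67 untreated, 10.50 and 8.15 at 18 hours, 10.05 and 9.42 at 6 days, and 8.73 and 9.21 at 2 weeks. Knockout Hacl1 read 8.24 and 8.12 untreated, 8.45 and 9.79 at 18 hours, 7.54 and 7.55 at 6 days, and 7.90 and 8.29 at 2 weeks. Hacl1 and Hao2 were therefore both lower in the knockout over 14 arrays. Of the 54 listed genes, 39 lay above 0 and 15 below in the genotype average over 14 arrays, with a median of 0.18. Phyh, for 1, was not called but read higher in untreated knockout mice (13.42 and 13.31) than in untreated wild type (11.88 and 12.56).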

How the data were processed

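Affymetrix arrays of 16 mice, 2 per group in 8 groups, were read from the table of log2 values that the authors deposited. It holds 72688 probesets, made with Affymetrix Expression Console and Transcriptome Analysis Console per the submitters' processing notes. How probesets were summarised, and on which genome build, is not stated in the labels or the table. GEO's platform annotation gave 30604 probesets 1 symbol, 2146 several and 39938 none here, 827 symbols were updated through Entrez identifiers, and for 355 genes with several probesets the brightest was kept. Group means were fitted over all 16 arrays with limma 3.58.1 (R 4.3.3; eBayes with an intensity trend), and p-values were adjusted over 30142 genes. The genotype average is the mean of the 4 differences, and time contrasts pool the genotypes. The pipeline was tested on simulated data. Members called, and the most different of each class, are given array by array; other members are given as ranges. Members, classes and lists were chosen with earlier results of these data known. Alternatives are listed in the closing section. The number of arrays limits the precision.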

Additional observations from a re-analysis of the deposited data

Results flagged for a closer look

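At 18 hours after serum, 11 of the genes given array by array moved one way from the untreated mean in both wild type arrays and the other way in both knockout arrays. The difference was not tested for any of them, and each 18-hour pair includes the replicate 2 array that stood apart from its label. Knockout change minus wild type change was -2.79 for Acsm2, -1.86 for Acox3, -1.13 for Acad10, -1.12 for Eci3, -0.92 for Acad11, -0.87 for Acad12, -0.83 for Acadl, -0.46 for Acadvl and -0.41 for Echs1. It was 3.67 for Acot3 and 0.54 for Echdc3. Cpt1c had 0.20, from wild type changes of -0.18 and -0.21, but its knockout arrays lay at their untreated mean (0.01 and 0.00). In Acot3 the wild type arrays lay -1.75 and -3.66 from their untreated mean and the knockout arrays 0.19 and 1.74 from theirs. Acsm2 had 0.13 and 2.65 in wild type and -0.45 and -2.35 in the knockout. In both genes replicate 2 was the farther of the pair.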

How the results depend on the processing

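No called value changed sign under any alternative. The counts of called members moved, and so did the counts over all genes. The sets are 14 arrays (without both 18-hour replicates 2), 13 (also without knockout 2 weeks replicate 1, dropped for its 2-week values, so that its counts support no fall) and 12 (no 18-hour arrays). In the genotype average the main count of 0 became 11 over 14 arrays, 14 over 13 and 9 over 12. For untreated mice it became 1, 6 and 1 over those sets and 2 with only the groups compared; for genotype at 6 days 2, 7 and 2, and 4. The 1 genotype call at 2 weeks became 0 over 14, 13 and 12 arrays, with only the groups compared and with the tubule covariate. The 1 call at 6 days became 0, 8 and 0 over those sets, 9 with only the groups compared and 5 without dim genes. The 25 calls at 2 weeks became 14, 45 and 14, 0 with only the groups compared, 15 after quantile normalization and 1 with the tubule covariate. The 20 calls of wild type at 2 weeks became 42 over 13 arrays, 13 after quantile normalization, which moved the median of all genes from 0.13 to 0.00, and 1 with the tubule covariate. The 0 calls of the knockout at 2 weeks became 18 over 13 arrays. Leaving out each array in turn gave 0 to 12 for the genotype average, 0 to 31 for genotype at 2 weeks, 0 to 6 at 6 days, 1 to 44 at 2 weeks, 0 to 36 in wild type, 0 to 17 in the knockout and 0 to 5 for the response difference. Deviations of same-numbered arrays had correlations of -0.679 to 0.593 (11 of 28 pairs over 0.1), so the numbers were not taken as pairs; the fit with replicate number as a replicate block called 2 members at 6 days and 24 at 2 weeks. For single genes, 1078 alternatives kept their side of the threshold, 437 lost a call and 58 gained one. The cause was not tested.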
